A study of Mus musculus with 21 samples.

Results

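The imprinted growth genes *H19*, *Igf2*, *Igf2r*, *Dlk1*, *Meg3*, *Peg3*, *Mest*, *Plagl1*, *Cdkn1c* and *Grb10* were followed through RNA-seq of mouse embryonic fibroblasts (MEFs). Members were the rows of the deposited expression table whose gene symbol was in this list of known genes, which gave 10 of 24454 genes. All 10 were among the 13719 genes that passed the filter on low counts. *Peg3* had 755 to 1111 counts in the *Terf1* F/F libraries and at most 23 in any other.

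The study asked whether loss of the helicase RTEL1 changes transcription, and compared it with stabilization of G4-DNA and with telomere dysfunction. RNA was sequenced in 7 groups of 3 libraries, all collected 96 h after infection with an adenovirus that carried GFP or Cre. *Rtel1* F/F cells, in which both *Rtel1* alleles are floxed, received GFP (*Rtel1* F/F +GFP), Cre (*Rtel1* F/F +Cre), or GFP with the G4-DNA ligand TMPyP4, a cationic porphyrin, at 10 μM for the last 48 h (*Rtel1* F/F +GFP +TMPyP4). *Rtel1* F/F cells that express the mutant RTEL1 C1252A/C1255A from a pBabe retroviral vector received GFP or Cre, so their +GFP cells had both the floxed gene and the mutant and their +Cre cells the mutant on a deleted background. *Terf1* F/F cells, whose floxed gene encodes the shelterin protein TRF1, received GFP or Cre. How many embryos or clones each line came from is not given in the sources used here, and replicates are labelled only as biological, so p-values measure the spread between these libraries, which may be technical.

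The targeted genes followed the labels. *Rtel1* was at 59.1 to 66.2 CPM (read counts scaled to library size, with normalization by the trimmed mean of M-values) in *Rtel1* F/F +GFP cells and at 26.8 to 31.9 CPM after Cre, and at 253 to 338 CPM in the libraries with the RTEL1 C1252A/C1255A vector. *Terf1* fell from 27.9 to 30.3 CPM in *Terf1* F/F +GFP cells to 5, 2 and 1 counts after Cre. Libraries held between 32069888 and 51938593 counts. Of 8 fibroblast markers, 7 were at 1 TPM (read counts scaled to library size and transcript length) or more in every library. The other one, *Thy1*, was at no more than 0.54 TPM in the 15 *Rtel1* F/F libraries and at 270 to 340 TPM in the 6 *Terf1* F/F libraries. All 5 epithelial, 4 hepatoblast and 4 skeletal muscle markers stayed under 1 TPM. So did *Ptprc*, *Adgre1* and *Csf1r* of blood cells and *Pecam1*, *Cdh5* and *Tek* of endothelium. The other endothelial marker, *Kdr*, was at no more than 0.14 TPM in *Rtel1* F/F libraries. It was at 0.58 to 0.78 TPM in *Terf1* F/F +GFP and 1.25 to 1.38 TPM in *Terf1* F/F +Cre libraries. *Cd68*, a macrophage marker that other cells also express, was at 1.64 to 11.6 TPM. The 4 neural genes *Nes*, *Sox2*, *Tubb3* and *Map2* were detected in every library, with a summed level of 90.7 to 168 TPM. The adipocyte marker *Fabp4* was at 0.84 to 3.6 TPM in *Rtel1* F/F and 18.6 to 29.7 TPM in *Terf1* F/F libraries. The other adipocyte markers, *Adipoq*, *Plin1* and *Cfd*, did not exceed 0.12 TPM in any library.

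Imprinted genes are transcribed mainly from the copy inherited from a single parent, a choice set by DNA methylation laid down in the germ line, and many of them tune growth before birth. As a rule the paternally expressed members promote growth and the maternally expressed members restrain it. *Igf2* (a fetal growth factor), *Dlk1* (a transmembrane protein with EGF-like repeats that holds back adipocyte differentiation), *Mest* (a predicted hydrolase), *Plagl1* (a zinc finger transcription factor) and *Peg3* (a zinc finger protein) are expressed from the paternal copy. *H19* and *Meg3* (long non-coding RNAs), *Igf2r* (the receptor that clears IGF2), *Grb10* (an adaptor that dampens insulin and IGF receptor signalling) and *Cdkn1c* (an inhibitor of cyclin-dependent kinases) are expressed from the maternal copy in most tissues. The counts do not separate the parental copies, so every value below is the sum of both.

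Several members lie in shared domains. In mouse genome build GRCm38 (mm10), *H19* (chr7:142575530-142578146) and *Igf2* (chr7:142650768-142666816) are 72.6 kb apart and *Cdkn1c* (chr7:143458339-143461059) lies 791.5 kb beyond *Igf2*. *Dlk1* (chr12:109452485-109463336) and *Meg3* (chr12:109540996-109571729) are 77.7 kb apart. The others are each alone among the members: *Mest* (chr6:30733506-30748466), *Peg3* (chr7:6703892-6730462), *Plagl1* (chr10:13090832-13131694), *Grb10* (chr11:11930499-12037428) and *Igf2r* (chr17:12682406-12769706).

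Because the study concerned G4-DNA, windows of 300 bases at RefSeq gene starts (250 before and 50 after the start, GRCm38.p6) were searched on both strands for 4 or more runs of at least 3 G with gaps of 1 to 7 bases, where a gap may itself hold G, so that a long stretch of G can count as several runs. RefSeq windows were found for 8 members (not for *H19* and *Cdkn1c*), with 15 windows between them. The pattern was present in 7 of these windows, which belonged to 6 members (*Igf2*, *Dlk1*, *Meg3*, *Peg3*, *Mest* and *Grb10*), and in 18.6% of all 32851 windows. When only whole runs that end at another base were counted, a reading added after the data were seen, 5 windows of 5 members held it, without *Dlk1*, and 16.9% of all windows. Counted by gene in the first way, which favours genes with several windows such as *Igf2*, 20.4% of all 27025 genes with a window had it. The 250 bases before the start are printed for *Igf2*, which had the largest fitted fall after *Rtel1* loss of the members with more than a few counts, *Dlk1* and *Grb10*, and for *Plagl1*, which fell without a match in its window. They run 5′ to 3′ on the strand of the gene, with the pattern in capitals.
*Igf2*, chr7:142657497-142657746, minus strand: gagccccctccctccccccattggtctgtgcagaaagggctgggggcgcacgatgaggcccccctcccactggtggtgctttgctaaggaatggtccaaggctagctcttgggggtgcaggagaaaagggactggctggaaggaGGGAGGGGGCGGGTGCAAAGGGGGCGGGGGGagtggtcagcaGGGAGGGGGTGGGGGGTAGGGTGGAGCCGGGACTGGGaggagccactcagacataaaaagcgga
*Dlk1*, chr12:109452573-109452822, plus strand: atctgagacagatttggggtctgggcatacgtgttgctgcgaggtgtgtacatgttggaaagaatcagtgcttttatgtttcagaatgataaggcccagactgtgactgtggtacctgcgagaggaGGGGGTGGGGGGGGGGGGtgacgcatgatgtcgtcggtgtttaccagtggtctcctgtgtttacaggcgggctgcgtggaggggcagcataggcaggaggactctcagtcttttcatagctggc
*Grb10*, chr11:12037421-12037670, minus strand: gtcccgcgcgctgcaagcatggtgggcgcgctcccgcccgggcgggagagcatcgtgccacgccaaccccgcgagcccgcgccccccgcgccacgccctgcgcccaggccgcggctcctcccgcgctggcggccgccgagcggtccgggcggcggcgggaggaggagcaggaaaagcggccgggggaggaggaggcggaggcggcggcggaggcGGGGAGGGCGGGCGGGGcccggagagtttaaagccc
*Plagl1*, chr10:13090582-13090831, plus strand: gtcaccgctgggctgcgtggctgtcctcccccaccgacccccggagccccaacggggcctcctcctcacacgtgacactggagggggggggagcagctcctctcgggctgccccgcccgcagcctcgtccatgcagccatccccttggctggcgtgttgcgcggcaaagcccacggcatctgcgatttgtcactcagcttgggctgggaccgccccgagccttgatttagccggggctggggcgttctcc
In *Igf2* the matches began 106 and 64 bases before this start, in *Dlk1* 124 bases and in *Grb10* 36 bases before it, all on the strand of the gene. Other windows of these genes are not printed. For *Igf2*, those at chr7:142666817-142667066 and chr7:142661272-142661521 held no match, and chr7:142658805-142659054 held 1 on the opposite strand. For *Grb10*, chr11:12027972-12028221 held none. Of the members not printed, *Mest* and *Meg3* had matches on the strand of the gene, *Peg3* on the opposite strand, and *Igf2r* none. A match describes the letters in the window only, and which start each gene used was not measured.

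Per transcript length, *Grb10* was the most abundant member in *Rtel1* F/F +GFP cells at 229 ± 12.8 TPM (SD, n = 3), followed by *Dlk1* at 110.3 ± 0.862 TPM, *Cdkn1c* at 74.9 ± 4.80 TPM, *Igf2r* at 62.0 ± 5.35 TPM and *Plagl1* at 35.7 ± 3.86 TPM. *Mest* (12.6 ± 4.09 TPM), *H19* (6.52 ± 2.15 TPM), *Igf2* (5.76 ± 1.98 TPM) and *Meg3* (1.20 ± 0.291 TPM) were lower, and *Peg3* was at 0.01 to 0.03 TPM. The 3 +GFP libraries differed among themselves in *H19*, *Igf2* and *Mest*, in each of which replicate 1 was lowest (4.41, 5.12 and 9.50 CPM) and replicates 2 and 3 lay close together (8.45 and 7.87, 10.6 and 9.90, and 18.1 and 15.7 CPM). The same libraries are the controls of every comparison with *Rtel1* F/F +GFP cells below.

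**Figure D1:**
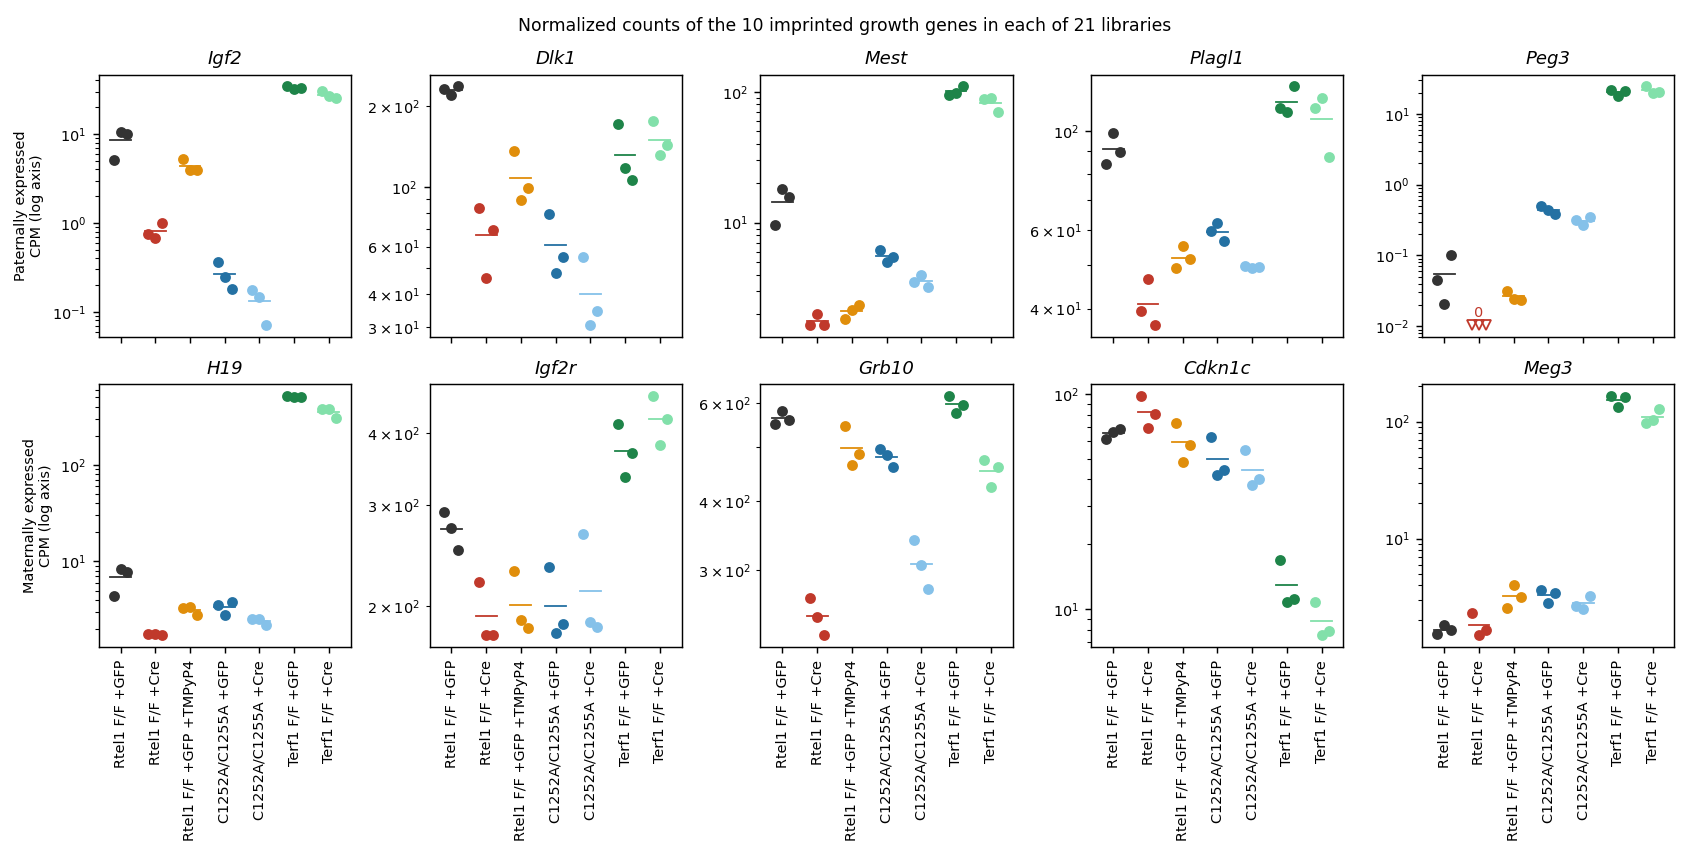
CPM on log axes of the 10 genes in 7 groups, with 1 point for each of the 3 libraries and a bar at the group mean; open triangles mark libraries with 0 counts. The upper row holds the paternally expressed genes, which are lower in all 3 *Rtel1* F/F +Cre libraries than in all 3 +GFP libraries, *Peg3* on at most 5 counts. The lower row holds the maternally expressed genes, of which *H19*, *Igf2r* and *Grb10* show the same order. *Cdkn1c* shows the reverse order, without passing the test, and *Meg3* overlaps.

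*Rtel1* loss lowered most of the growth-promoting, paternally expressed genes. *Igf2* was at 5.12, 10.6 and 9.90 CPM in *Rtel1* F/F +GFP cells and at 0.746, 0.670 and 1.01 CPM in *Rtel1* F/F +Cre cells, so that the groups were far apart. This was a log2 fold change of -3.40 (SE 0.256, adjusted p = 7.53e-09, quasi-likelihood test of edgeR, Benjamini-Hochberg adjusted), or 10.6 times lower. *Mest* went from 9.50, 18.1 and 15.7 CPM to 1.65, 2.01 and 1.64 CPM, a log2 fold change of -3.03 (SE 0.197, adjusted p = 1.26e-09). *Dlk1*, which began much higher, went from 233, 220.4 and 237 CPM to 83.4, 45.9 and 69.1 CPM, a log2 fold change of -1.80 (SE 0.269, adjusted p = 2.98e-05). Its 3 +GFP libraries were within a narrow range and its +Cre libraries more spread, without overlap. *Plagl1* was at 84.3, 98.9 and 89.7 CPM before and at 39.5, 46.5 and 36.7 CPM after Cre, a log2 fold change of -1.15 (SE 0.104, adjusted p = 5.54e-08). *Peg3* had 2, 1 and 5 counts in +GFP cells and 0, 0 and 0 in +Cre cells, of which only the 5 exceeds the floor of 3 counts. It passed the test (adjusted p = 0.0047) but no fold is given for it. It did not pass the count filter when only these 6 libraries were fitted, and the call was lost without any single +Cre library, without +GFP replicate 3 (adjusted p = 0.017 to 0.0547) and with DESeq2 (0.0132).

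Of the maternally expressed genes, *H19*, *Grb10* and *Igf2r* fell and *Cdkn1c* and *Meg3* did not pass the test. *H19* went from 4.41, 8.45 and 7.87 CPM to 1.77, 1.76 and 1.72 CPM, a log2 fold change of -1.98 (SE 0.191, adjusted p = 1.49e-07), and its 3 +Cre libraries were nearly equal. *Grb10* had the most counts of all members and the smallest error. It was at 551, 581 and 559.6 CPM in +GFP and 267, 247 and 229 CPM in +Cre cells, a log2 fold change of -1.19 (SE 0.0802, adjusted p = 1.87e-09). *Igf2r* was at 292, 273 and 251 CPM before and 220.2, 178 and 179 CPM after Cre, a log2 fold change of -0.50 (SE 0.145, adjusted p = 0.00705), which no longer passed without +Cre replicate 2 or 3 or without +GFP replicate 1 or 2 (adjusted p = 0.0148 to 0.0263). *Cdkn1c* was at 61.4, 66.6 and 68.5 CPM in +GFP and 97.2, 69.5 and 80.8 CPM in +Cre cells, a log2 difference of 0.33 (adjusted p = 0.195). *Meg3* was at 1.54, 1.81 and 1.66 CPM in +GFP and 2.33, 1.49 and 1.67 CPM in +Cre cells, with overlapping libraries (log2 difference 0.14, adjusted p = 0.584).

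Thus 8 of 10 members passed after *Rtel1* loss, all 8 of them lower, where 43% of all genes tested passed and 21% passed as lower. The members' median log2 fold change was -1.49, or -1.19 without *Peg3*, and that of all genes tested -0.03. Without *Rtel1* F/F +GFP replicate 1, which was low in *H19*, *Igf2* and *Mest*, their log2 fold changes were -2.22, -3.67 and -3.25. These were the largest falls over the alternative settings, and the smallest were -1.80, -3.21 and -2.82. The summed fibroblast markers were lower in the same libraries (7295 to 8083 TPM in +GFP and 3159 to 3996 TPM in +Cre cells), while the summed neural markers (105.8 to 144 and 151 to 168 TPM) and blood cell markers (2.51 to 2.82 and 3.19 to 4.39 TPM, mostly *Cd68*) were higher. Within the neural sum *Map2* was lower (2.47 to 3.11 TPM in +GFP and 0.97 to 1.4 TPM in +Cre cells) and *Sox2* overlapped (15.95 to 20.24 and 16.11 to 17.86 TPM). The summed epithelial, endothelial, hepatoblast and skeletal muscle markers did not exceed 1.17 TPM in either group, and the part of these markers in the result was not tested. In bulk RNA, fewer cells that express a gene cannot be told apart from less RNA per cell.

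TMPyP4 lowered *Mest*, *H19*, *Dlk1*, *Igf2* and *Plagl1* and raised *Meg3*. These values use the same *Rtel1* F/F +GFP libraries as those of *Rtel1* loss, so they are not independent of them. *Mest* was at 1.84, 2.14 and 2.34 CPM with TMPyP4, a log2 fold change of -2.77 (SE 0.194, adjusted p = 1.5e-08). *H19* was at 3.27, 3.35 and 2.79 CPM, a log2 fold change of -1.14 (SE 0.180, adjusted p = 7.42e-05). *Dlk1* was at 135.6, 89.5 and 99.2 CPM, a log2 fold change of -1.09 (SE 0.264, adjusted p = 0.00332), which did not pass without TMPyP4 replicate 2 or 3 (adjusted p = 0.0216 and 0.0177). *Plagl1* was at 49.2, 55.2 and 51.6 CPM, below every +GFP library, a log2 fold change of -0.81 (SE 0.103, adjusted p = 8.63e-06). *Igf2* was at 5.26, 3.90 and 3.99 CPM, so that the highest treated library was above +GFP replicate 1. Its log2 fold change of -0.97 (SE 0.216, adjusted p = 0.00158) did not pass without +GFP replicate 2 or TMPyP4 replicate 2 or 3 (adjusted p = 0.0105 to 0.0113) or when only these 6 libraries were fitted (0.0218). *Meg3* was at 2.54, 4.02 and 3.18 CPM against 1.54, 1.81 and 1.66 CPM, a log2 fold change of 0.97 (SE 0.190, adjusted p = 5.47e-04).

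The 4 members that did not pass with TMPyP4 were *Igf2r*, *Peg3*, *Cdkn1c* and *Grb10* (adjusted p = 0.0207 to 0.632). *Igf2r* was at 229.8, 189 and 183 CPM, all below the +GFP libraries, with a log2 difference of -0.44 (adjusted p = 0.0207). Its value after *Rtel1* loss was -0.50, and tested directly both conditions differed by -0.06 (adjusted p = 0.818). *Grb10* was at 545.8, 464 and 487 CPM, all below the +GFP libraries, with a log2 difference of -0.18 (adjusted p = 0.0801). In all, 6 of 10 members passed, where 30% of genes tested did, with 5 lower (13.4% of all genes) and 1 higher (16.6%). The median was -0.89 (-0.81 without *Peg3*) and that of all genes -0.01. The summed fibroblast markers were at 4119 to 5442 TPM in the treated libraries, also below the +GFP libraries, while the neural and blood cell sums overlapped with those of the +GFP libraries. Within the neural sum *Sox2* was lower with TMPyP4 (12.34 to 13.6 against 15.95 to 20.24 TPM in +GFP cells). *Map2* was lower too (1.16 to 1.44 against 2.47 to 3.11 TPM). The part of these markers in the result was not tested.

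**Figure D2:**
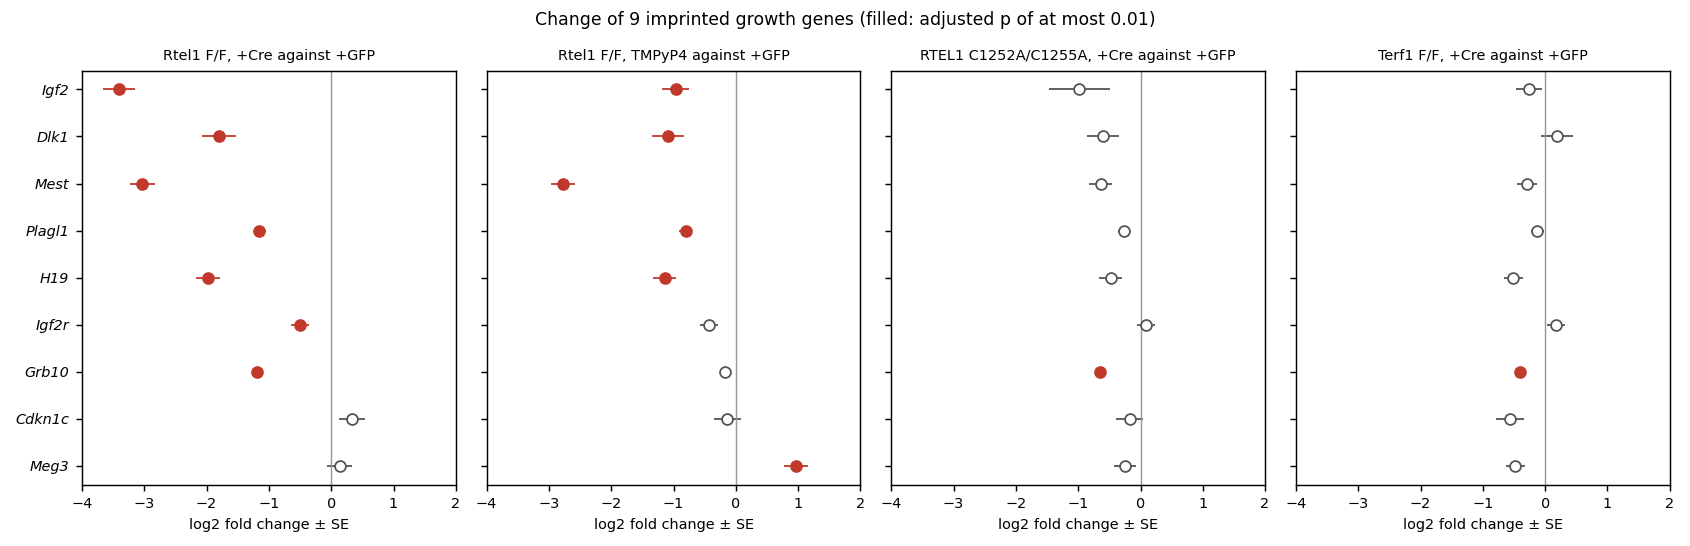
Log2 fold change with its standard error for 9 of the 10 genes (*Peg3* is left out for its low counts) in 4 comparisons; filled points passed at an adjusted p of at most 0.01. After *Rtel1* loss 7 of these 9 are filled, with TMPyP4 6, and in both other comparisons *Grb10* alone, at -0.64 and -0.40.

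A direct test of *Rtel1* F/F +Cre against +GFP +TMPyP4 cells asked which members differed between both conditions. *Grb10*, *Igf2*, *H19* and *Meg3* were lower after *Rtel1* loss, 4 of 10 members where 15.2% of genes tested passed and 9.09% passed as lower. *Igf2* differed most, by a log2 value of -2.44 (SE 0.261, adjusted p = 2.44e-06), and *Grb10* by -1.01 (SE 0.0800, adjusted p = 5.11e-08), with no overlap between libraries in either gene. *H19* differed by -0.84 (SE 0.201, adjusted p = 0.005), but same-numbered libraries of these groups deviated together, and when that number was entered as a block its value of -0.83 had an adjusted p of 0.0111. It also did not pass without any single +Cre library or without TMPyP4 replicate 1 or 2 (adjusted p = 0.0169 to 0.024). *Meg3* differed by -0.83 (SE 0.192, adjusted p = 0.00361), and did not pass without +Cre replicate 2 or 3, without TMPyP4 replicate 2 or 3 (adjusted p = 0.0105 to 0.0294), or when only these 6 libraries were fitted (0.0469). Without +Cre replicate 3 or TMPyP4 replicate 2 the count fell to 2. With the block 6 members passed, with *H19* lost and *Dlk1* (-0.72, adjusted p = 5.21e-04), *Plagl1* (-0.35, adjusted p = 0.00657) and *Cdkn1c* (0.47, adjusted p = 0.00305) gained. Over all genes tested, 2970 passed with the block, in place of 2088. The summed fibroblast markers were lower and the summed neural ones higher in the +Cre than in the TMPyP4-treated libraries, without overlap (neural 151 to 168 and 125 to 141 TPM). Within the neural sum *Sox2* was higher too (16.11 to 17.86 and 12.34 to 13.6 TPM), while *Map2* overlapped (0.97 to 1.4 and 1.16 to 1.44 TPM). The part of these markers in the result was not tested. *Mest* did not pass, with a log2 difference of -0.26 (adjusted p = 0.427).

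Cre in cells with RTEL1 C1252A/C1255A lowered *Grb10* and passed for no other member. *Grb10* went from 497, 483 and 460.5 CPM to 339.9, 306 and 277 CPM, without overlap, a log2 fold change of -0.64 (SE 0.0795, adjusted p = 1.64e-04). Fitted on these 6 libraries alone, its log2 fold change of -0.65 had an adjusted p of 0.0905, and edgeR called 0 of 12618 genes in that fit, 1256 of them at an unadjusted p under 0.05, against 337 called by DESeq2 on all libraries. *Igf2* did not pass the count filter in that fit. The count of 1 in 10 stands beside 1.09% of all genes tested, 0.569% as lower. Same-numbered libraries deviated together here too, and with the block *Grb10* was again the 1 member (-0.65, adjusted p = 1.08e-05), among 289 genes in place of 150. The other 9 had log2 fold changes of -0.98 to 0.09 (adjusted p = 0.0694 to 0.92). Among them *Mest* was at 6.16, 5.02 and 5.46 CPM before and 3.49, 3.98 and 3.24 CPM after Cre, which did not overlap (log2 difference -0.64, adjusted p = 0.0694). *Igf2* could hardly be followed, with 17, 9 and 8 counts before and 9, 6 and 3 after Cre. The summed fibroblast markers overlapped between these groups (3458 to 4941 and 2989 to 4527 TPM), while the blood cell markers did not (2.56 to 3.08 and 3.96 to 4.17 TPM).

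Cre in *Terf1* F/F cells again lowered *Grb10* and no other member passed. *Grb10* was at 617, 577 and 597 CPM in +GFP and 474, 424 and 459 CPM in +Cre cells, a log2 fold change of -0.40 (SE 0.0792, adjusted p = 0.0035). This call was lost without +Cre replicate 2 or 3 or +GFP replicate 1 or 3 (adjusted p = 0.0115 to 0.0278), which took the count to 0 of 10. Across all genes tested 3.42% passed, 0.765% as lower. *H19*, at 512, 503 and 503 CPM before and 382, 376 and 307 CPM after Cre, did not overlap but had an adjusted p of 0.0611 (log2 difference -0.51). *Meg3* was at 164, 133 and 161 CPM before and 97.1, 103 and 129 CPM after Cre (log2 difference -0.48, adjusted p = 0.0684). The 9 members that did not pass lay between -0.56 and 0.19. The summed fibroblast markers overlapped between these groups (8992 to 12126 and 8884 to 10739.5 TPM), while the endothelial ones did not (0.89 to 1.01 and 1.48 to 1.71 TPM).

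The fall of *Grb10* with Cre was larger in *Rtel1* F/F cells than in either other line. The difference between its Cre effects was -0.54 (SE 0.112, adjusted p = 9.71e-04) against the RTEL1 C1252A/C1255A line and -0.79 (SE 0.112, adjusted p = 2.63e-05) against the *Terf1* F/F line. Tested in the same way, the Cre effect was also more negative in *Rtel1* F/F cells for *Mest*, by -2.39 (SE 0.268, adjusted p = 3.66e-06) and -2.73 (SE 0.254, adjusted p = 2.94e-07), for *H19*, by -1.50 (SE 0.269, adjusted p = 3.19e-04) and -1.47 (SE 0.246, adjusted p = 1.35e-04), and for *Plagl1*, by -0.89 (SE 0.145, adjusted p = 1.31e-04) and -1.03 (SE 0.145, adjusted p = 2.44e-05). For *Igf2* the difference was -3.14 (SE 0.326, adjusted p = 1.01e-06) against the *Terf1* F/F line and -2.42 (SE 0.601, adjusted p = 0.00416) against the RTEL1 C1252A/C1255A line. The latter rests on the few counts above and did not pass with the replicate number as a block (0.0157), in a fit of the 4 groups alone (0.0139) or without RTEL1 C1252A/C1255A +Cre replicate 1 or 2, +GFP replicate 2 or *Rtel1* F/F +Cre replicate 2 (adjusted p = 0.0107 to 0.0504). *Dlk1* differed from the *Terf1* F/F line by -1.98 (SE 0.373, adjusted p = 4.60e-04), and its difference of -1.19 from the RTEL1 C1252A/C1255A line had an adjusted p of 0.0184.

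In all, 5 members differed from the RTEL1 C1252A/C1255A line, where 25.1% of genes tested did and 12.3% as more negative, and 7 from the *Terf1* F/F line, where 30.2% did and 14.5% as more negative. The 7 include *Peg3* on the counts at its floor given above. Medians over the members were -1.04 and -1.25 (-0.89 and -1.03 without *Peg3*), against -0.05 for all genes in both. For both lines the differences share the *Rtel1* F/F libraries.

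RTEL1 C1252A/C1255A +GFP cells, which still had the floxed *Rtel1* gene, already stood apart from *Rtel1* F/F +GFP cells in these genes, and the comparison uses those same control libraries. *Igf2* was 31.7 times lower, at 0.366, 0.244 and 0.183 CPM (log2 fold change -4.99, SE 0.297, adjusted p = 4.8e-10), the largest difference of a member in this comparison. *Dlk1* was at 79.0, 47.8 and 55.1 CPM (-1.92, SE 0.270, adjusted p = 1.52e-05) and *Mest* at 6.16, 5.02 and 5.46 CPM (-1.38, SE 0.176, adjusted p = 3.4e-06). *H19*, at 3.57, 2.77 and 3.84 CPM, was lower by -1.02 (SE 0.177, adjusted p = 9.52e-05), which did not pass in a fit of these 6 libraries (0.0115), and *Plagl1*, at 59.7, 62.3 and 56.6 CPM, by -0.61 (SE 0.102, adjusted p = 6.27e-05). *Meg3* was higher, at 3.66, 2.79 and 3.45 CPM (0.99, SE 0.188, adjusted p = 2.31e-04), as was *Peg3*, with 23, 16 and 17 counts against 2, 1 and 5. With 5 lower and 2 higher, 7 of 10 passed, where 44.7% of genes tested passed, 22.1% lower and 22.6% higher. The median was -0.53, against -0.03 for all genes. *Grb10*, *Igf2r* and *Cdkn1c* did not pass (log2 difference -0.44 to -0.23). The summed fibroblast markers were lower in the same libraries (3458 to 4941 against 7295 to 8083 TPM), and their part in the result was not tested. Effects of the vector, of the mutant protein and of any difference in how these cells were derived or prepared cannot be told apart here.

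The largest log2 fold changes of members were between lines. In *Terf1* F/F +GFP cells *Meg3* was at 164, 133 and 161 CPM against 1.54, 1.81 and 1.66 CPM in *Rtel1* F/F +GFP cells (log2 fold change 6.51, SE 0.199, adjusted p = 7.11e-15), and *H19* at 512, 503 and 503 CPM against 4.41, 8.45 and 7.87 CPM (6.19, SE 0.197, adjusted p = 1.64e-14). *Peg3* had 932, 785 and 858 counts against 2, 1 and 5, at and near the floor, so no fold is given for it. *Mest* was at 94.8, 97.7 and 110 CPM (2.80, SE 0.175, adjusted p = 1.39e-10) and *Igf2* at 34.3, 32.2 and 32.9 CPM (1.96, SE 0.210, adjusted p = 2.18e-07). *Plagl1* was slightly higher, at 112, 110.1 and 126 CPM (0.35, SE 0.102, adjusted p = 0.00561), but not without *Rtel1* F/F +GFP replicate 1 or 3 or *Terf1* F/F +GFP replicate 2 or 3 (adjusted p = 0.0117 to 0.0372). *Cdkn1c* alone was lower, at 16.8, 10.7 and 11.1 CPM against 61.4, 66.6 and 68.5 CPM (-2.34, SE 0.226, adjusted p = 8.44e-08).

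This made 6 members higher, *Peg3* included, and 1 lower, where 54.9% of genes tested passed, 30.3% higher and 24.5% lower. The median was 1.20, or 0.45 without *Peg3*, against 0.02. *Dlk1*, *Igf2r* and *Grb10* did not pass (adjusted p = 0.0131, 0.0104 and 0.375). The lines differ in the floxed gene, in origin, in the summed fibroblast markers (8992 to 12126 against 7295 to 8083 TPM) and in *Thy1*, *Map2* (2.47 to 3.11 TPM in *Rtel1* F/F and 29.5 to 35.0 TPM in *Terf1* F/F +GFP cells) and *Sox2* (15.9 to 20.2 and 2.86 to 3.53 TPM), and these cannot be told apart.

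Ordered by mean level over all 7 groups, *H19*, *Igf2* and *Mest* each ran from *Terf1* F/F +GFP through *Terf1* F/F +Cre to *Rtel1* F/F +GFP cells, without overlap between these 3. *H19* was lowest in *Rtel1* F/F +Cre cells (1.75 ± 0.0274 CPM), *Igf2* in RTEL1 C1252A/C1255A +Cre cells (0.131 ± 0.0548 CPM) and *Mest* in *Rtel1* F/F +Cre cells (1.77 ± 0.210 CPM), which overlapped with +GFP +TMPyP4 cells (2.11 ± 0.253 CPM). *Dlk1* differed in that *Rtel1* F/F +GFP cells were highest (229.9 ± 8.48 CPM), above both *Terf1* F/F groups, which overlapped with each other. *Grb10* ran from 597 ± 20.2 CPM in *Terf1* F/F +GFP and 564 ± 15.2 CPM in *Rtel1* F/F +GFP cells, which overlapped, down to 307 ± 31.6 CPM in RTEL1 C1252A/C1255A +Cre and 248 ± 19.2 CPM in *Rtel1* F/F +Cre cells, which did not. *Cdkn1c* ran the other way, highest in *Rtel1* F/F +Cre (82.5 ± 13.95 CPM) and lowest in *Terf1* F/F +Cre cells (8.74 ± 1.79 CPM).

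The genes of a domain did not keep a fixed ratio. Per length, *H19* and *Igf2* were nearly equal in *Rtel1* F/F +GFP cells, at 4.11 and 3.52, 8.22 and 7.27, and 7.23 and 6.49 TPM in the 3 libraries, so that replicate 1 was low in both. The log2 ratio of *H19* to *Igf2* was 0.16 to 0.22 in these libraries, -0.19 to 0.51 with TMPyP4, and 1.51 to 2.07 in *Rtel1* F/F +Cre cells, where *Igf2* had fallen further than *H19*. It was 3.65 to 5.82 in both groups with RTEL1 C1252A/C1255A, where *Igf2* was nearly absent, and 4.14 to 4.73 in the *Terf1* F/F groups, where *H19* was high. In the other domain the log2 ratio of *Dlk1* to *Meg3* was 6.21 to 6.94 in *Rtel1* F/F +GFP, 4.62 to 4.88 in +Cre and 3.79 to 5.49 in TMPyP4-treated cells. In *Terf1* F/F cells both genes had like levels per length, with a log2 ratio of -1.07 to 0.46. These ratios are given as a description, with no test.

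**Figure D3:**
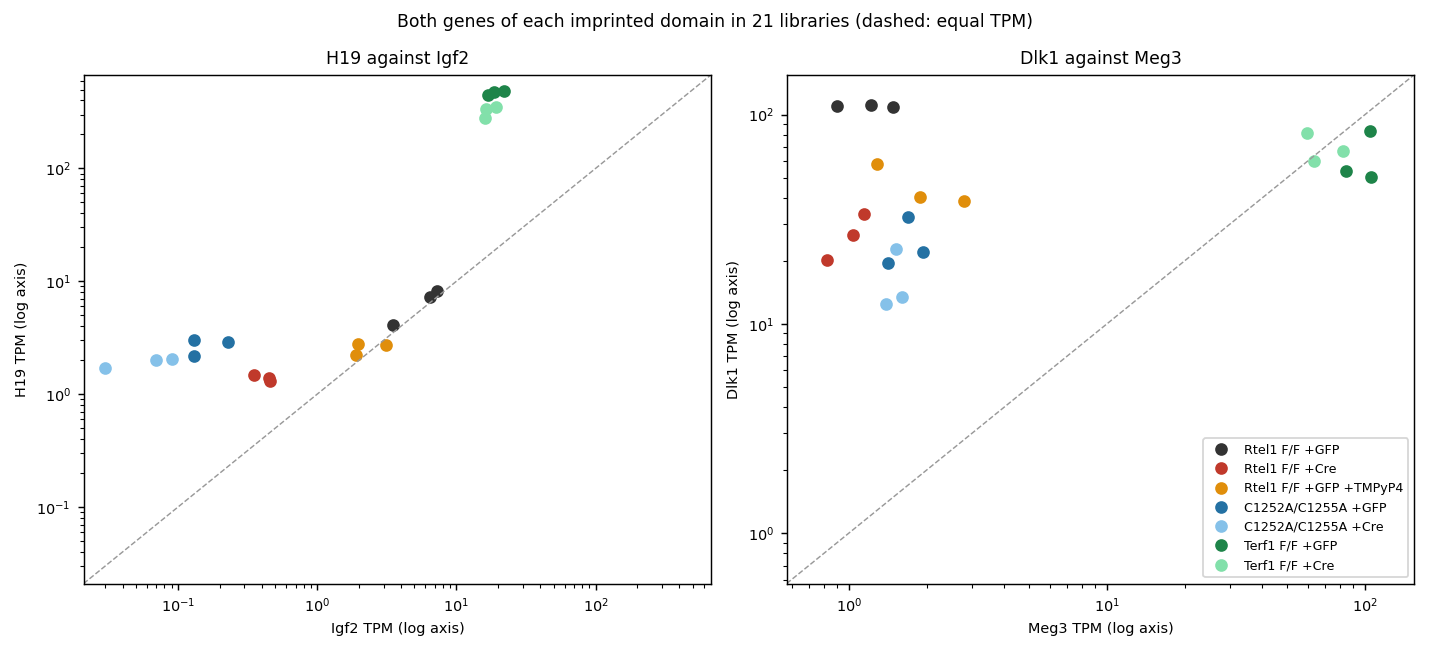
TPM, on log axes, of *H19* against *Igf2* (left) and *Dlk1* against *Meg3* (right) in 21 libraries coloured by group, with a dashed line of equal TPM. The *Rtel1* F/F +GFP libraries lie on the line for *H19* and *Igf2*, the libraries with RTEL1 C1252A/C1255A far above it with *Igf2* at 0.03 to 0.23 TPM, and the *Terf1* F/F libraries at the upper right in both panels.

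Some of the spread among replicates was shared. The library numbered 1 was the highest of its group in 7 of 7 groups for *Igf2r* and in 6 of 7 for *Dlk1*, *Cdkn1c* and *Grb10*, but in only 1 of 7 for *Mest* and *Plagl1*. Over the 15 *Rtel1* F/F libraries, after subtraction of group means, log2 CPM of *Dlk1* correlated with that of *Cdkn1c* (r = 0.948) and of *Igf2r* (r = 0.868), and *H19* with *Mest* (r = 0.781). What same-numbered libraries share is not given in the sources used here, and the correlations are a description.

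Over all 21 libraries, the genes whose log2 CPM was most like that of a member (highest Pearson r among 11839 other genes that averaged 1 CPM or more) were *Dact1* and *Mr1* for *H19* (0.996 and 0.994), *Rian* and *Plcb4* for *Meg3* (0.995 and 0.994), *Lima1* and *Daam2* for *Igf2* (0.990 and 0.985), *Rbpms* and *Adamts1* for *Peg3* (0.988 and 0.987) and *Angpt1* and *AW551984* for *Mest* (0.985 and 0.984). *Rian*, like *Meg3*, is a maternally expressed non-coding RNA of the *Dlk1* domain. For *Cdkn1c* they were *Zdhhc16* and *Jade2* (0.983 and 0.976), for *Dlk1* *Ptms* and *Cbx6* (0.980 and 0.978), for *Plagl1* *Agtr2* and *Chrdl1* (0.980 and 0.980), for *Igf2r* *Fbn1* and *Iqsec2* (0.977 and 0.972) and for *Grb10* *Cables1* and *Cdh13* (0.963 and 0.935). The libraries fall into lines and groups, so these correlations describe mostly the differences between groups.

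Other imprinted genes passed after *Rtel1* loss in a share near that of all genes. Of 60 listed, 46 were tested, of which 14 were lower and 7 higher, or 45.7% against 43% of all genes tested, with a median of -0.31 against -0.03. Among those with a mean of at least 1 CPM, *Dcn*, a small proteoglycan of the matrix, rose by a log2 value of 1.47 (adjusted p = 8.46e-09), and *Ndn*, a growth suppressor of the MAGE family, and *Ppp1r9a*, a neuronal actin-binding protein, fell by 1.44 and 1.11 (adjusted p = 2.26e-07 and 1.02e-06). With TMPyP4, 11 were lower and 5 higher, or 34.8% against 30% (median -0.25 against -0.01), among them *Ndn* (-1.89, adjusted p = 5.61e-08), *Begain* (-1.63, adjusted p = 0.00128) and *Dcn*, which was lower here (-0.87, adjusted p = 1.2e-05) and 2.35 apart on the log2 scale between *Rtel1* loss and TMPyP4 (adjusted p = 1.74e-10). With Cre in the RTEL1 C1252A/C1255A line 0 of the 46 passed with edgeR (9 at an unadjusted p under 0.05, 1 called by DESeq2), and after *Terf1* loss *Ppp1r9a* alone (-0.82, adjusted p = 4.05e-04). Over all genes tested 1.09% and 3.42% passed with edgeR in these 2 comparisons, so such counts say little about a list of this size. Between lines, 19 of the 46 were higher and 6 lower in *Terf1* F/F +GFP cells, or 54.3% against 54.9% of all genes. Leaving out genes that averaged under 1 CPM, the log2 fold change was largest for *Rian* (6.06), *Gatm* (5.11) and *Mirg* (4.62), of which *Rian* and *Mirg* are non-coding RNAs transcribed beyond *Meg3*.

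A list of IGF and insulin signalling, *Igf2* mRNA binding and *Hmga2* held 19 tested genes other than the members. Of these, 7 were lower and 2 higher after *Rtel1* loss, or 47.4% against 43% of all genes tested (median -0.27). *Igf1*, the other ligand of the IGF1 receptor, fell from 79.4 to 7.28 CPM (group means; log2 fold change -3.45, adjusted p = 1.03e-11), and *Foxo1*, a transcription factor held back by insulin signalling, fell by 0.91 (adjusted p = 1.82e-08). *Hmga2*, an architectural chromatin protein, rose by 1.21 (adjusted p = 2e-07). With TMPyP4, 4 were lower and 1 higher, or 26.3% against 30%, with *Igf1* at -1.19 (adjusted p = 2.96e-06), *Shc1* at -0.58 and *Foxo1* at -0.50. *Igf1* also fell with Cre in the RTEL1 C1252A/C1255A line (-0.85, adjusted p = 0.00303), the 1 gene of this list that passed there, where 1.09% of all genes tested did. After *Terf1* loss, where 3.42% of all genes tested passed by edgeR, 0 of 19 passed by edgeR (1 at an unadjusted p under 0.05) or DESeq2. Of 17 tested genes that write, read or erase imprints, 4 were lower and 1 higher after *Rtel1* loss, or 29.4% against 43% of all genes tested, led by the DNA demethylases *Tet2* (-1.31, adjusted p = 6.82e-06), *Tet1* (-0.85, adjusted p = 0.00136) and *Tet3* (-0.77, adjusted p = 0.0029). With TMPyP4, 2 were lower, *Tet2* (-0.83, adjusted p = 9.19e-04) and *Tet1* (-0.73, adjusted p = 0.0061), and 2 higher, with the imprint-binding zinc finger gene *Zfp57* at 0.56 (adjusted p = 0.00102), or 23.5% in all against 30%. Of the 17, 0 passed with Cre in either other line by edgeR or DESeq2, with 0 at an unadjusted p under 0.05 in the RTEL1 C1252A/C1255A line and 3 in the *Terf1* F/F line. Beside 1.09% and 3.42% of all genes tested by edgeR, a count of 0 says little about a list of this size.

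**Figure D4:**
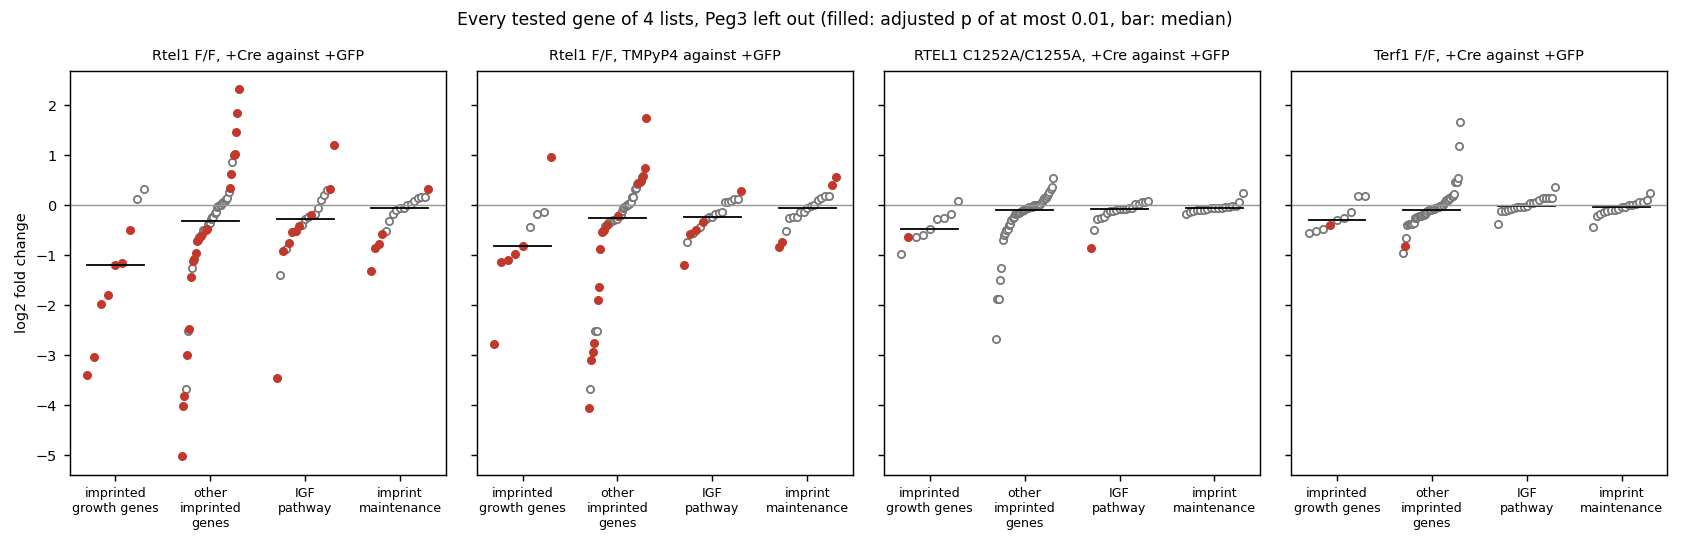
Log2 fold change of every tested gene of 4 lists in 4 comparisons, *Peg3* left out, with filled points at an adjusted p of at most 0.01 and a bar at each list's median; genes of few counts are included and reach the most extreme values. After *Rtel1* loss the median of the imprinted growth genes is at -1.19 without *Peg3*, that of other imprinted genes at -0.31, and few points are filled in the 2 panels at the right.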

How the data were processed

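RNA-seq of MEFs gave 21 libraries in 7 groups of 3, mapped to groups by their labels. After trimming with cutadapt 1.9.1 and alignment with STAR 2.5.2a the authors deposited the RSEM 1.3.0 expected counts of 24454 RefSeq genes of mm10, stranded and not normalized, of which 0 were not whole numbers. The authors also deposited TPM values, used here for levels between genes. Read length and serum differ between the labels and the paper's methods and are not given here. The deposited files hold no other columns of per-sample values.

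Expected counts, as deposited, were tested with edgeR 4.0.16 in R 4.3.3 (TMM normalization, low counts removed by filterByExpr, a robust quasi-likelihood model of 7 group means over 21 libraries, two-sided tests, 14 residual degrees of freedom), after a check on simulated data. A gene passed at a Benjamini-Hochberg adjusted p of at most 0.01 over 13719 genes. Correlations used log2 CPM with a prior count of 2. A floor of 3 counts per library was used. Counting error and floors cover sampling of reads only. The 10 members, the lists, the comparisons and the alternatives were chosen with earlier results of these data known. All members were named, and, from 3 lists of related genes, the 3 called genes of largest change with a mean of at least 1 CPM in a comparison, or fewer. Sequences and positions came from RefSeq tables of GRCm38.p6, searched with Python 3.11.15. Alternatives were DESeq2 1.42.0, its size factors, other count filters, a fit of only the groups compared, a replicate block, an adjusted p of at most 0.05, longer gaps in the pattern, whole runs alone in the pattern (added after the data were seen), and each library left out.

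Whether same numbers pair libraries was checked on deviations from group means over 11840 genes, taken to hold where all 3 correlations exceed 0.1. It held for both RTEL1 C1252A/C1255A groups (r = 0.864, 0.839 and 0.424) and for TMPyP4-treated against *Rtel1* F/F +Cre libraries (0.724, 0.758 and 0.409). It did not hold for *Rtel1* F/F +GFP against *Rtel1* F/F +Cre (-0.0172, 0.058 and 0.131) or TMPyP4-treated libraries (0.0242, 0.0502 and 0.133). Nor did it hold for *Rtel1* F/F +GFP against RTEL1 C1252A/C1255A +GFP libraries (0.0282, 0.0468 and 0.109). For *Terf1* loss the values were 0.552, 0.358 and -0.0998. Whether the *Rtel1* F/F +GFP libraries were prepared apart from those groups is not given in the sources used here.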

Additional observations from a re-analysis of the deposited data

Results flagged for a closer look

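Cre acted on *Rtel1* F/F cells otherwise than on another line, by a test of the difference itself in edgeR, in 12 cases. Against the RTEL1 C1252A/C1255A line the log2 differences were -1.50 for *H19*, -2.42 for *Igf2*, -2.39 for *Mest*, -0.89 for *Plagl1* and -0.54 for *Grb10*. Against the *Terf1* F/F line they were -1.47 for *H19*, -3.14 for *Igf2*, -1.98 for *Dlk1*, -4.40 for *Peg3*, -2.73 for *Mest*, -1.03 for *Plagl1* and -0.79 for *Grb10*. The *Peg3* value is a fitted number that depends on the prior count, since its *Rtel1* F/F libraries held at most 5 counts, and is no measure of size.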

How the results depend on the processing

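Counts of members that passed stayed within 1.5 times their value in 120 of 129 alternative settings, and the log2 fold changes of members that passed kept their call in 564 of 612 and lost it in 48, with 0 reversed. Settings in which a member did not pass the count filter are not among the 612. After *Rtel1* loss this left 10 settings for *Peg3* and 11 for *Igf2*, against 12 for *H19*. At an adjusted p of at most 0.05, 8 members differed in the Cre effect between the *Rtel1* F/F and RTEL1 C1252A/C1255A lines, in place of 5. Of the 13719 genes tested, 5229 differed at that setting, in place of 3450. With the replicate number as a block, 2 members passed after *Terf1* loss, where same numbers did not pair libraries, in place of 1, and the block changed the calls named above for *H19* and *Igf2* and no other call of a member that passed. It added calls of members in 6 comparisons, *Terf1* loss among them, where same numbers did not pair all libraries. Over all genes tested, 757 passed after *Terf1* loss with the block, in place of 469. Fitted on its 6 libraries alone, where 9 members without *Igf2* passed the count filter, Cre with RTEL1 C1252A/C1255A called 0 members by edgeR, 4 of them at an unadjusted p under 0.05. With each library left out in turn, 6 to 7 members passed after *Rtel1* loss, 2 to 3 differed between *Rtel1* loss and TMPyP4 and 0 to 1 passed after *Terf1* loss. DESeq2 called 7 members after *Rtel1* loss and 7 with TMPyP4. With gaps of 1 to 12 bases the G-run pattern was in 9 of 15 windows of members and in 28.7% of all windows, and with whole runs alone in 5 of 15. The low counts of *Peg3*, and of *Igf2* with RTEL1 C1252A/C1255A, limit what could be seen there. The cause of these changes was not tested.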
